A study of Homo sapiens with 6 samples.

Results

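A set of 53 collagen, matrix and contractile genes, given by name, was read across 6 RNA-seq libraries of the human breast cancer line SUM159, which is triple-negative (without oestrogen receptor, progesterone receptor or HER2 amplification). The genes are 53 of the 58336 in the count table, and 18 of them encode collagen chains. They were sorted by role into 9 groups. A filter on low counts left 47 of them for testing, among 15673 genes. The other 6, FBN2, MFAP2, MFAP5, LOXL4, LUM and THY1, had at most 5 counts in each of the 6 libraries.

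The libraries differ in the labelled level of ITGB4, the beta-4 integrin subunit that epithelial cells use to hold on to laminin, and in where the cells had been. There was 1 library of ITGB4-high cells grown in dishes and 2 of ITGB4-low cells grown in dishes, clones 1 and 3, which are the controls. ITGB4-low cells of the same clones were injected into the tail vein of mice together with LM2 cells, a lung-seeking human derivative of MDA-MB-231, and recovered from the lungs (2 libraries). In the last library, clone 1 cells came from mice that received bleomycin, a drug that injures the lung, by way of the trachea. After dissociation the lung suspensions spent a night in culture, and tdTomato-positive cells were then sorted. The controls and the ITGB4-high cells had neither a stay in the lung nor a sort, so these steps cannot be told apart from the LM2 or bleomycin exposure. LM2 cells are human as well, so reads from any LM2 cell in a sort would count towards the same genes. Each ITGB4-low library is 1 clone, the number of mice behind it is not given in the sources used here, and clone 3 for the LM2 library rests on its title alone. The p-values below measure the spread from library to library. In the control and LM2 groups this is the spread between clones 1 and 3, and in the pooled lung class also that between triggers. No clone was repeated within a group, so clone and technical spread cannot be told apart.

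Fibrillar collagens assemble into the cables of connective tissue after their propeptides are cut off and their lysines are oxidised and crosslinked by enzymes of the LOX family. Basement membrane collagens form the sheet under epithelia, and collagen VI forms beaded filaments between both kinds of matrix. Fibronectin, fibrillins and fibulins are laid down with them, matricellular proteins such as periostin and tenascin-C modulate how cells attach, and a carcinoma cell line that expresses these genes with actin-binding contractile proteins is usually described as mesenchymal.

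The libraries held 13607953 to 22222121 counts, and 5.35% to 7.08% of them were mitochondrially encoded. A count of 0 allows a level of up to 3 counts, or 0.138 to 0.232 CPM (counts scaled to a library size of 1e6, after TMM correction), counting error only. ITGB4 stood at 384 CPM in the ITGB4-high library, 25.9 and 24.6 in control clones 1 and 3, 471 and 442 in LM2 clones 1 and 3, and 306 with bleomycin. Keratins KRT8 (29.5 to 92.7 CPM) and KRT18 (81.0 to 117 CPM) were present in all 6 libraries, whereas EPCAM and CDH1, which define most epithelial lines, had at most 0.192 CPM. Of the receptors that a triple-negative line lacks, ESR1 had at most 0.416 CPM, PGR was at 0 in all 6, and ERBB2, which such a line keeps without amplification, ran from 28.0 to 66.8 CPM. Among markers of other cells, the fibroblast list of 10 genes summed to 251 to 363 CPM, of which PDPN gave 249 to 341, and MEOX2 was at 0 in all 6. Of that list, 4 genes were higher in both controls than in the other libraries. DPT had 2.84 and 5.98 CPM in the controls and at most 0.256 elsewhere, SCARA5 7.97 and 14.6 against at most 1.15, COL14A1 0.623 and 0.873 against at most 0.128, and COL15A1 1.11 and 0.689 against at most 0.232. The 8 pericyte and smooth muscle genes summed to 17.7 to 75.3 CPM, with the highest sum in LM2 clone 1. That sum was mostly CSPG4, at 68.3 against 18.1 and 18.5 in control clones 1 and 3. RGS5, NOTCH3 and KCNJ8 were below both controls in LM2 clone 1. They stood there at 2.56, 3.56 and 0.155 CPM, against at least 5.06, 13.3 and 1.52 in the controls. DES, CNN1, MYH11 and ACTG2 had at most 7 counts in any library. The 9 endothelial genes summed to 83.5 and 121 CPM in the controls, mostly KDR (70.8 and 105), and to 11.4 to 33.4 elsewhere, with CDH5 at 0 in all 6. PECAM1 had at most 2.02 CPM in the controls, 3.07 in ITGB4-high cells, 2.32 and 3.64 in LM2 clones 1 and 3, and 9.42 with bleomycin. Myeloid genes (10) summed to 2.19 to 11.3 CPM with AIF1 and C1QA at 0. PTPRC, which defines blood cells, had 1 count in ITGB4-high cells, 3 and 4 in the controls, 30 and 4 in LM2 clones 1 and 3, and 42 with bleomycin, and ITGAM had 2, 0 and 0, 7 and 1, and 8 counts in the same order. PTPRC and ITGAM were thus highest in both clone 1 lung libraries, and MARCO was highest with bleomycin, at 6.09 CPM against 2.49 and 2.94 in the controls. Other genes of the list did not follow in LM2 clone 1. There MARCO (1.01 CPM) and CD14 (0.310, against 0.693 and 0.368 in control clones 1 and 3) were below both controls. LYZ, at 0.155, lay between them (0.900 and 0.046). The myeloid sum was 4.65 in LM2 clone 1, 4.50 and 3.72 in the controls, and 11.3 with bleomycin. Lung epithelial genes (8) summed to 2.48 to 6.58 with SFTPC, SFTPA1 and SCGB1A1 at 0. The host lungs were from mice, and hg38, the genome named, is human. Reads from mouse cells would count only where they align to it, for the markers and for the set. Low values of these markers therefore do not measure mouse cells. The part of other cells in the results below was not tested beyond these values, and fewer cells of a type and less RNA per cell cannot be told apart in such libraries.

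The 3 genes of the set that passed the test in a comparison are FBN1, LOX and TPM1, and the sequence just before the start of each is shown because their counts carry the calls below. The bases come from the RefSeq promoter table (GRCh38.p14), run 5′ to 3′ on the strand of the gene, begin 250 bases before the start given in that table and stop where an annotated untranslated region begins. The LOX stretch ends where the GENCODE gene begins, whereas the GENCODE genes FBN1 and TPM1 begin further upstream, so those stretches lie within the annotated gene. Capitals mark GGAATG, the core of the TEAD site, or CAGACA, a SMAD-type motif, read on either strand, and CAGACA on the opposite strand reads TGTCTG.

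FBN1, chr15:48644971-48645220, minus strand: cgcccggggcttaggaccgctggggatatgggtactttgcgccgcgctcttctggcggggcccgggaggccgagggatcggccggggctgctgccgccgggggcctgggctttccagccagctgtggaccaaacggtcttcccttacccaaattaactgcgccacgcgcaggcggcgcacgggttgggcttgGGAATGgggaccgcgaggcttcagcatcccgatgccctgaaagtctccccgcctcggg

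LOX, chr5:122078361-122078509, minus strand: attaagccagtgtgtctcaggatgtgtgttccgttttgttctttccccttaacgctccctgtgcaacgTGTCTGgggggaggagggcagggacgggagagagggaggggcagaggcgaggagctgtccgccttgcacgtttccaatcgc

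TPM1, chr15:63048239-63048438, plus strand: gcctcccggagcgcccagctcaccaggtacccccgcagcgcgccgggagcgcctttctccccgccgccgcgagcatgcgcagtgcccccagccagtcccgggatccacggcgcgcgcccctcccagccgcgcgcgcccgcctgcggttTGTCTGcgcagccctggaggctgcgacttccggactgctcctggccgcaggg

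The FBN1 stretch is 69.6% G and C, that of LOX 59.1% and that of TPM1 77.5%. Over the full 250 bases before the start, on both strands, 37 of the 53 genes had an entry. GGAATG was found in 5 of the 37 (ACTA2, CALD1, COL12A1, FBN1 and SPARC), against 14.3% of all 27305 genes with an entry. CAGACA was found in 4 (COL7A1, LOX, TNC and TPM1), against 16.3% of all genes. The E-box CAGGTG was found in 4 (COL16A1, LOX, LOXL4 and MFAP2), against 20.6%, and the CArG box, the serum response factor site, in 0, against 1.44%. Each motif was searched separately, so a stretch could count for several, some genes have several starts in the table, and a match is a description of letters and not a site.

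The first comparison set ITGB4-high cells against the ITGB4-low controls, both grown in dishes. Most of the set was lower in ITGB4-high cells: 35 of the 47 tested genes had a fitted decrease and 12 an increase, with a median log2 fold change of -1.95, against -0.01 over all 15673 genes. FBN1, the microfibril protein, and LOX, the enzyme that starts collagen crosslinks, fell and passed edgeR's quasi-likelihood test with Benjamini-Hochberg adjustment over all genes, and 0 of the set rose. Over all genes, 0.0893% passed in either direction, 0.0574% higher and 0.0319% lower. Before adjustment, p was under 0.05 for 23 of the 47 as lower and 5 as higher, against 14.2% and 10.4% of all genes. The single ITGB4-high library lay below both controls for 32 of the 47 (68.1%, against 45.2% of all genes) and above both for 10 (21.3%, against 43.6%). Against control clone 1 it was at least 2-fold higher for 3 and at least 2-fold lower for 24 of the 47 (5.6% and 11.4% of all genes), and against control clone 3 for 3 and 25 (6.64% and 12.4%). FN1, COL3A1, COL5A2, COL6A3, EFEMP1 and FAP lie on chromosome 2. Over all tested genes of that chromosome the median log2 ratio of ITGB4-high to control clone 1 was -0.22, and the part of this shift in their values was not tested. The ITGB4-high arm is 1 library, its spread is taken from the other groups, and 16 of the set passed (1 higher, 15 lower) when clone was fitted as a replicate block, against 2.32% of all genes. With limma-voom, or without either control library, 0 of the set passed.

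The second comparison set the 3 lung-recovered ITGB4-low libraries against the 2 controls. Here the set split: 23 genes had a fitted increase and 24 a decrease, with a median of -0.14 against 0.00 over all genes. TPM1, a tropomyosin that lines actin filaments, fell and was the 1 gene of the set that passed, while 0.498% of all genes passed (0.268% higher and 0.23% lower). All 3 lung libraries lay above both controls for 14 of the 47 genes (29.8%, against 20.4% of all genes) and below both for 20 (42.6%, against 25.4%). BGN, COL13A1, COL1A2, ELN and FAP were under the filter's level of 0.682 CPM in both controls and entered the test through other libraries. Over genes at that level in a control, the higher count was 10 of 42 (23.8%, against 18.8% of all such genes), and over genes at that level in a lung library the lower count was 20 of 47 (against 24.3%), an alternative chosen after seeing the data. At an unadjusted p under 0.05, 12 were higher and 16 lower, against 9.26% and 11.3%. COL1A2, ELN, COL13A1 and BGN are among these 12, and together with FAP among the 23 fitted increases. Both counts thus include genes that the filter kept for their level in the lung libraries. With clone fitted as a replicate block 0 of the set passed (0.249% of all genes did), and TPM1 had an adjusted p of 0.0533.

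**Figure D1:**
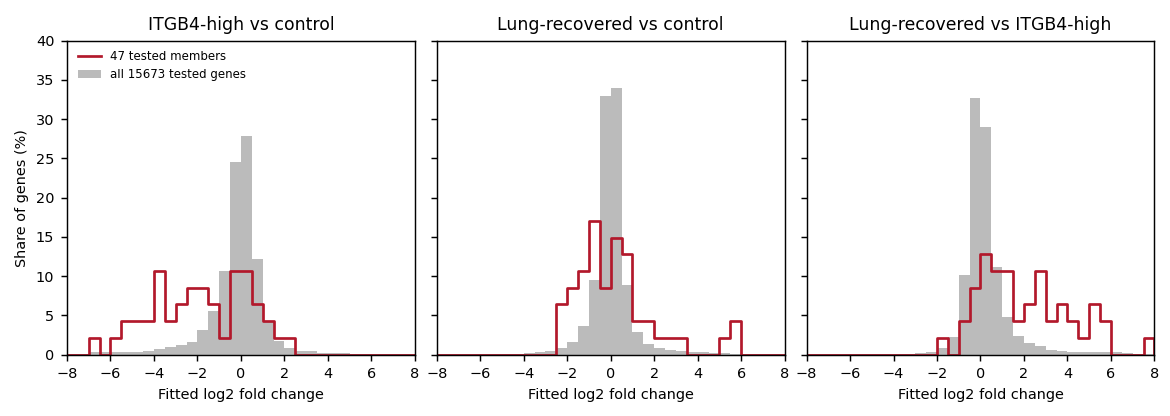
Histograms of the fitted log2 fold change (x axis) as a share of genes in percent (y axis), for the 47 tested genes of the set (red line) and all 15673 tested genes (grey), in 3 comparisons. The red line is shifted to the left in ITGB4-high against control (median -1.95), spreads to both sides in lung-recovered against control (-0.14) and to the right in lung-recovered against ITGB4-high (1.57).

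Both comparisons share the control libraries, so their values are given side by side. Of the 47 genes, 18 (38.3%, against 20.3% of all genes) lay below both controls in the ITGB4-high library and also in all 3 lung libraries. Another 4, COL6A3, COL13A1, COL16A1 and VCAN, were below both controls in ITGB4-high cells and above both in all 3 lung libraries (8.51%, against 3.18%). A further 6, COL27A1, COL7A1, EFEMP2, ELN, TNC and ACTA2, lay above both controls in all 4 of the other libraries (12.8%, against 15.8%), although ELN in ITGB4-high cells rests on 1 count against 0 and 1, under the floor of 3. COL4A5 was above in ITGB4-high and below in lung cells (2.13%, against 3.48%). Over genes at the filter's level in a control, these patterns held 18, 3, 5 and 1 of 42 genes, without COL13A1 and ELN. These are 42.9%, 7.14%, 11.9% and 2.38%, against 21.9%, 2.99%, 14.6% and 3.62% of all such genes. The names of these 11 were chosen by this pattern after their values were seen.

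**Figure D2:**
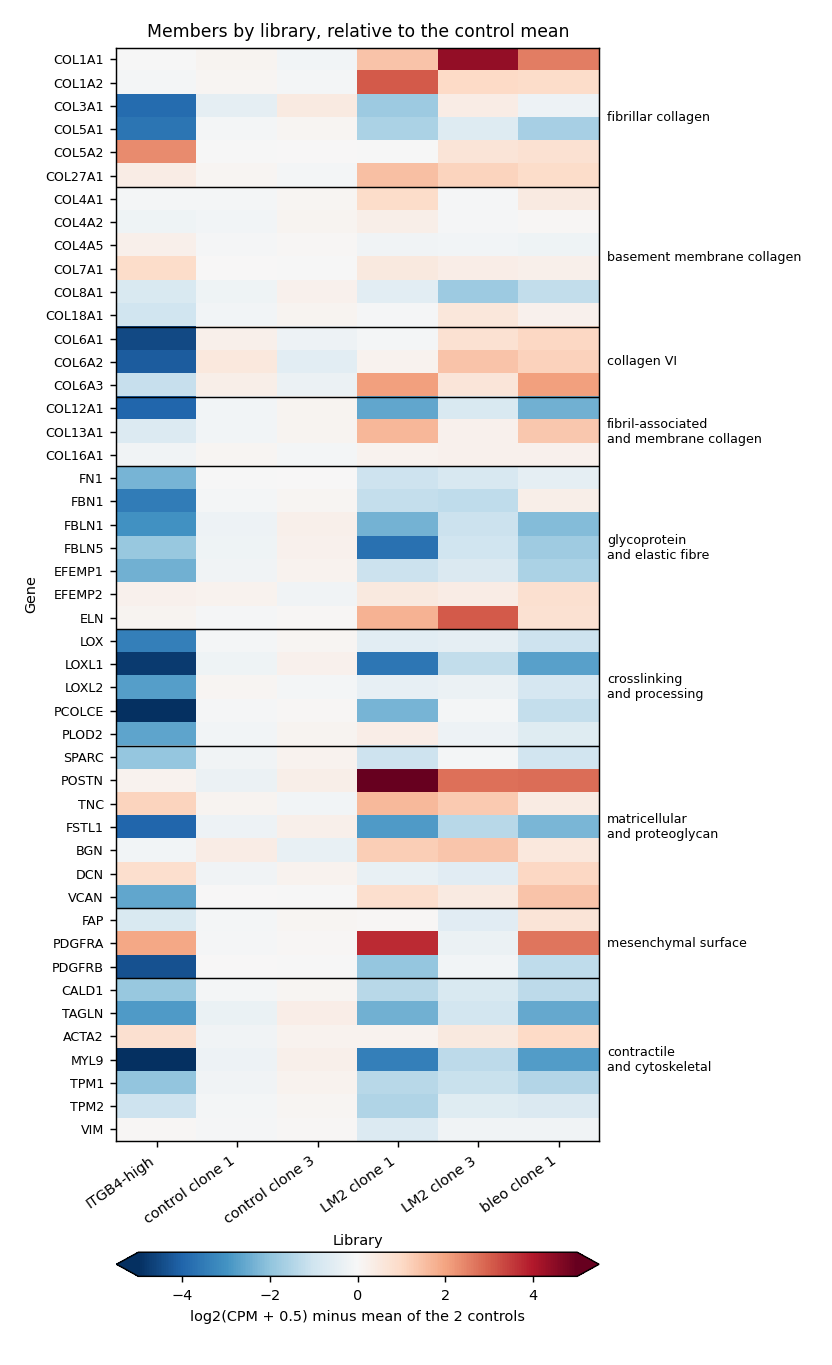
Each row is 1 of the 47 tested genes, grouped by role, and each column is 1 of the 6 libraries. Colour gives log2(CPM + 0.5) minus the mean of the 2 controls, blue for lower and red for higher, with the scale ending at 5 in either direction. The ITGB4-high column is mostly blue, and the lung columns hold red for POSTN and COL6A3 and blue for most crosslinking, fibulin and contractile genes. ACTA2 and EFEMP2 lie above the controls in the lung columns, as does PLOD2 in LM2 clone 1, where COL6A1 and COL6A2 are within the control range.

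In level per kilobase of exon, the 53 genes summed to 1254 CPM per kb in the ITGB4-high library, 2462 and 2775 in control clones 1 and 3, 1505 and 1920 in LM2 clones 1 and 3, and 1793 with bleomycin. All 4 other libraries were thus below both controls in the total, which 3 genes dominate: VIM (mean 607 CPM per kb), FN1 (371) and COL8A1 (149). As a share of all counts, the set took 0.942% in ITGB4-high cells, 2.32% and 2.42% in the controls, and 1.35%, 1.67% and 1.72% in LM2 clone 1, LM2 clone 3 and the bleomycin library.

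**Figure D3:**
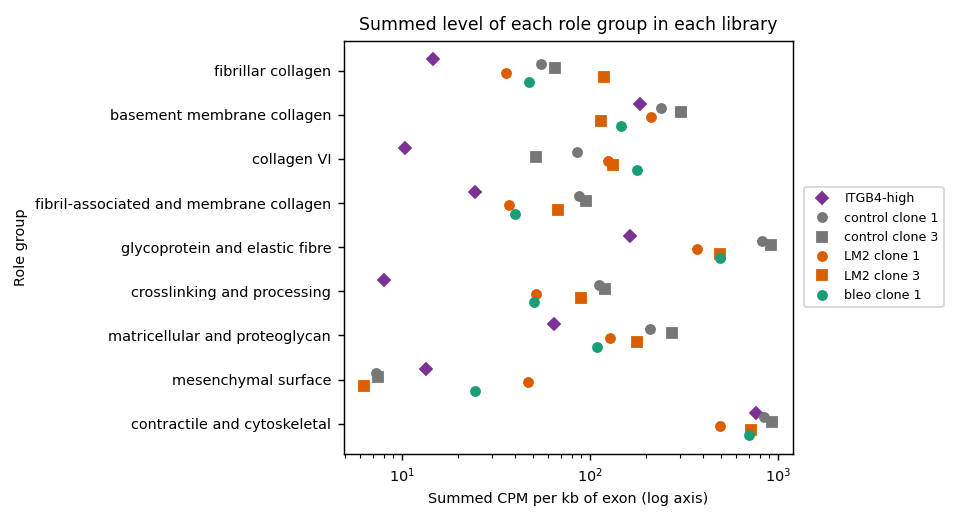
Summed CPM per kilobase of exon (x axis, log scale) for each of the 9 role groups (y axis), 1 point per library. Collagen VI is at 10.4 in ITGB4-high cells and at 125 to 178 in the lung libraries, with the controls between at 51.6 and 85.0, and the crosslinking group is at 8.07 in ITGB4-high cells against 112 and 120 in the controls.

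Among the 6 fibrillar collagen genes, 0 passed in any comparison, and the group's median log2 fold change was -1.11 in ITGB4-high cells and 0.88 in lung cells against control. The lung median includes COL1A2, the highest of the 6 values, which entered the test through the lung libraries. COL1A1, the main chain of type I collagen (chr17:50183289-50201632, minus strand), had 32.3 CPM in ITGB4-high cells, 36.3 and 29.8 in the controls, 90.4 and 712 in LM2 clones 1 and 3, and 194 with bleomycin. The 3 lung libraries were above the 3 cultured ones without overlap, LM2 clone 3 by far the most, and the fitted change in lung against control was 3.33 (SE 0.93, adjusted p = 0.15, edgeR). COL1A2, whose chain pairs with that of COL1A1 in type I collagen, had 0 counts in ITGB4-high cells, 1 and 0 in the controls, 51 and 9 in LM2 clones 1 and 3, and 8 with bleomycin. It was near the floor in culture, entered the test through the lung libraries and gets no fold here. In LM2 clone 3, where COL1A1 was highest, the level per kilobase was 72.5 CPM per kb for COL1A1 and 0.0516 for COL1A2.

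COL5A1, the type V chain that helps start fibrils, had 39.5 CPM in ITGB4-high cells, 472 and 539 in the controls, 169 and 321 in LM2 clones 1 and 3, and 161 with bleomycin. ITGB4-high cells were lowest, the lung libraries lay between, and neither difference passed (-3.68, SE 0.49, adjusted p = 0.0618 for ITGB4-high, and -1.22, SE 0.32, adjusted p = 0.138 for lung, edgeR). COL27A1, a fibrillar collagen of cartilage, had 53.7 CPM in ITGB4-high cells, 43.6 and 38.4 in the controls, 119 and 89.2 in LM2 clones 1 and 3, and 78.5 with bleomycin. All 3 lung libraries exceeded the cultured ones, with a fitted lung change of 1.22 (SE 0.21, adjusted p = 0.0734, edgeR). COL3A1 and COL5A2 were named after their values were seen. COL3A1, the collagen of soft tissues, was at 3.28 CPM in ITGB4-high cells, 38.9 and 74.4 in the controls, 14.8 and 70.6 in LM2 clones 1 and 3, and 44.4 with bleomycin, so that lung and control overlapped. COL5A2, the partner chain of COL5A1, went the other way from it in ITGB4-high cells, at 25.5 CPM against 4.43 and 4.60 in the controls and 4.42 to 8.01 in the lung libraries (2.50, SE 0.36, adjusted p = 0.0636, edgeR).

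The 6 basement membrane and related collagens had the medians closest to 0 among the collagen groups, -0.16 in ITGB4-high and 0.18 in lung cells, and 0 passed. COL4A1 and COL4A2 encode the chains of the common type IV network and lie head to head on chromosome 13 (COL4A1 chr13:110148963-110307233, minus strand, COL4A2 chr13:110305812-110513209, plus strand), where their annotated ends overlap. COL4A1 had 91.8 CPM in ITGB4-high cells, 91.8 and 104 in the controls, 185 and 94.2 in LM2 clones 1 and 3, and 132 with bleomycin. COL4A2 stood at 144, 154 and 183, 204 and 163, and 176 CPM in the same order. For both genes the lung and control libraries overlapped, and fitted changes in both comparisons lay between -0.22 and 0.49. COL7A1, the anchoring fibril collagen that links to hemidesmosomes, had 239 CPM in ITGB4-high cells, 127 and 125 in the controls, 175 and 158 in LM2 clones 1 and 3, and 149 with bleomycin. It was above both controls in all 4 other libraries (0.92, SE 0.15, adjusted p = 0.0704 in ITGB4-high cells, and 0.35, SE 0.12, adjusted p = 0.207 in lung cells, edgeR). COL8A1, a short-chain collagen of vessel walls and the collagen of the set with the highest level per kilobase, had 1221 CPM in ITGB4-high cells, 1825 and 2410 in the controls, 1444 and 588 in LM2 clones 1 and 3, and 895 with bleomycin. All 4 other libraries were below both controls, and no difference passed (-0.79, adjusted p = 0.436, and -1.12, adjusted p = 0.185, edgeR). COL4A5, a further type IV chain, ran from 142 to 195 CPM over the 6 libraries, and COL18A1, whose end fragment is endostatin, from 28.5 to 86.1.

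Collagen VI showed the widest gap between ITGB4-high and lung cells of the 9 groups, with median log2 fold changes of -4.35 in ITGB4-high against control, 0.92 in lung against control and 5.27 in lung against ITGB4-high, and 0 of its 3 genes passed. COL6A1 (chr21:45981737-46005050, plus strand) had 4.96 CPM in ITGB4-high cells, 147 and 106 in the controls, 118 and 210 in LM2 clones 1 and 3, and 256 with bleomycin. COL6A2, its neighbour on chromosome 21 (chr21:46098097-46132849, plus strand), had 6.79 CPM in ITGB4-high cells, 187 and 90.5 in the controls, 146 and 352 in LM2 clones 1 and 3, and 291 with bleomycin. For both, the ITGB4-high library was far below the other 5, while LM2 clone 1 lay within the control range. The fitted changes against control in ITGB4-high cells were -4.67 (SE 0.54, adjusted p = 0.0608) for COL6A1 and -4.35 (SE 0.86, adjusted p = 0.0885) for COL6A2, and lung against ITGB4-high gave 5.29 (SE 0.62, adjusted p = 0.0641) and 5.27 (SE 0.81, adjusted p = 0.0791), all edgeR. COL6A3, the long chain, had 161 CPM in ITGB4-high cells, 446 and 294 in the controls, 1498 and 558 in LM2 clones 1 and 3, and 1496 with bleomycin. Its 3 lung libraries were above both controls, the 2 of clone 1 at nearly the same level, with a fitted lung change of 1.68 (SE 0.48, adjusted p = 0.155, edgeR).

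The remaining 3 collagens differed from one another. COL12A1, which coats fibrils, had 53.8 CPM in ITGB4-high cells, 780 and 926 in the controls, 138 and 501 in LM2 clones 1 and 3, and 162 with bleomycin, below both controls in all 4 other libraries (-3.99, SE 0.92, adjusted p = 0.103 in ITGB4-high, and -1.67, SE 0.56, adjusted p = 0.189 in lung, edgeR). COL13A1, a collagen anchored in the cell membrane, had 1 count in ITGB4-high cells, 5 and 11 in the controls, 31 and 9 in LM2 clones 1 and 3, and 29 with bleomycin, and it entered the test through the lung libraries. COL16A1, a fibril-associated collagen, was nearly level at 188 to 251 CPM in all 6 libraries.

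FN1 and FBN1 head the glycoproteins and elastic fibre genes, of which 7 of 10 were tested. FN1, fibronectin (chr2:215360440-215436172, minus strand), had 1943 CPM in ITGB4-high cells, 9636 and 9699 in the controls, 4670 and 5608 in LM2 clones 1 and 3, and 6995 with bleomycin. The controls were highest and close to each other, the lung libraries lay between, and the fitted lung change was -0.75 (SE 0.20, adjusted p = 0.145, edgeR). FBN1, fibrillin-1 (chr15:48408306-48645849, minus strand), had 3.65 CPM in ITGB4-high cells, 43.0 and 49.0 in the controls, 20.0 and 18.9 in LM2 clones 1 and 3, and 56.0 with bleomycin. The ITGB4-high library was lowest by far, both LM2 libraries were below the controls, and the bleomycin library was above them. FBN1 fell by 3.65 on the log2 scale in ITGB4-high cells (SE 0.23, adjusted p = 0.0414, edgeR), and in lung cells the value was -0.54 (SE 0.49, adjusted p = 0.559). The ITGB4-high call of FBN1 was lost without control clone 1 (adjusted p = 0.33), without control clone 3 (0.371) and with limma-voom (0.0658), within a range over the alternatives of 3.68e-23 to 0.371.

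Of the 4 fibulins and fibulin-like genes, FBLN1, FBLN5 and EFEMP1 were below both controls in all 4 other libraries. FBLN1, a fibulin of basement membranes and elastic fibres, had 114 CPM in ITGB4-high cells, 790 and 1108 in the controls, 180 and 445 in LM2 clones 1 and 3, and 207 with bleomycin. EFEMP1, fibulin-3, had 120 CPM in ITGB4-high cells, 555 and 721 in the controls, 297 and 378 in LM2 clones 1 and 3, and 209 with bleomycin. For both genes all 4 other libraries were below both controls, with fitted changes in ITGB4-high of -3.06 (adjusted p = 0.098) and -2.41 (adjusted p = 0.0608) and in lung of -1.78 (adjusted p = 0.117) and -1.11 (adjusted p = 0.119), edgeR. ELN, elastin, had 1 count in ITGB4-high cells, 0 and 1 in the controls, 16 and 61 in LM2 clones 1 and 3, and 6 with bleomycin. Like COL1A2 it was near the floor in culture and entered the test through the lung libraries. FBLN5, an elastic fibre fibulin, ran from 7.52 CPM in LM2 clone 1 to 121 in control clone 3, and EFEMP2, fibulin-4, from 1.01 to 2.44 CPM.

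The crosslinking and processing genes, of which 5 of 6 were tested, were all lower in ITGB4-high cells, with fitted changes from -6.62 to -2.72 and 5 of 5 at an unadjusted p under 0.05. LOX, lysyl oxidase (chr5:122063195-122078360, minus strand), had 4.45 CPM in ITGB4-high cells, 49.3 and 56.6 in the controls, 36.4 and 38.5 in LM2 clones 1 and 3, and 25.8 with bleomycin. The ITGB4-high library was far below the rest, both LM2 libraries lay somewhat below the controls, and the bleomycin library was at 0.487 of the control mean. LOX fell by 3.57 on the log2 scale in ITGB4-high cells (SE 0.23, adjusted p = 0.0414, edgeR), in lung against control the value was -0.66 (SE 0.20, adjusted p = 0.169), and in lung against ITGB4-high it was 2.91 (SE 0.33, adjusted p = 0.0571). The call of LOX was lost without control clone 1, without control clone 3 and with limma-voom.

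PCOLCE, the protein that speeds removal of the collagen C-propeptide, had 1.46 CPM in ITGB4-high cells, 138 and 151 in the controls, 28.3 and 135 in LM2 clones 1 and 3, and 63.7 with bleomycin. Its fitted change of -6.62 in ITGB4-high cells was the largest decrease of the 47 (SE 1.32, adjusted p = 0.0892, edgeR), and in the lungs LM2 clone 3 was just below control clone 1. LOXL1, the lysyl oxidase of elastic fibres, had 2.63 CPM in ITGB4-high cells, 74.4 and 99.4 in the controls, 6.59 and 36.4 in LM2 clones 1 and 3, and 12.7 with bleomycin. All 4 other libraries were below both controls, those of clone 1 most among the lung libraries (-5.04, SE 1.27, adjusted p = 0.113 in ITGB4-high, and -2.22, SE 0.65, adjusted p = 0.161 in lung, edgeR). LOXL2, a family member that also crosslinks type IV collagen, had 28.2 CPM in ITGB4-high cells, 210 and 179 in the controls, 145 and 159 in LM2 clones 1 and 3, and 109 with bleomycin. PLOD2, which hydroxylates collagen telopeptide lysines, had 9.12 CPM in ITGB4-high cells, 54.2 and 65.8 in the controls, 74.7 and 49.4 in LM2 clones 1 and 3, and 39.4 with bleomycin. Both were lowest in ITGB4-high cells (LOXL2 -2.79, adjusted p = 0.0514, and PLOD2 -2.72, adjusted p = 0.0609, edgeR), and for PLOD2 the lung libraries lay on either side of the controls.

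Of the matricellular genes and proteoglycans, 7 of 8 were tested and 0 passed, and the members went in opposite directions. POSTN, periostin (chr13:37562583-37598844, minus strand), had 0.876 CPM in ITGB4-high cells, 0.485 and 1.01 in the controls, 78.9 and 7.67 in LM2 clones 1 and 3, and 7.88 with bleomycin. All 3 lung libraries were above all 3 cultured ones, LM2 clone 1 the most, and the fitted lung change was 5.32 (SE 1.47, adjusted p = 0.149, edgeR). FSTL1, follistatin-like 1, a secreted glycoprotein, had 69.8 CPM in ITGB4-high cells, 926 and 1292 in the controls, 154 and 419 in LM2 clones 1 and 3, and 225 with bleomycin. The controls were above all 4 others, with fitted changes of -3.99 (SE 0.77, adjusted p = 0.0849) in ITGB4-high and -2.06 (SE 0.42, adjusted p = 0.0941) in lung, edgeR.

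TNC, tenascin-C, had 275 CPM in ITGB4-high cells, 142 and 115 in the controls, 390 and 314 in LM2 clones 1 and 3, and 168 with bleomycin, above both controls in all 4 others (1.10, adjusted p = 0.0892, and 1.18, adjusted p = 0.167, edgeR). VCAN, the large proteoglycan versican, had 11.2 CPM in ITGB4-high cells, 71.0 and 70.0 in the controls, 127 and 95.6 in LM2 clones 1 and 3, and 190 with bleomycin. VCAN was thus below the controls in ITGB4-high cells (-2.66, SE 0.26, adjusted p = 0.0515) and above them in all 3 lung libraries (0.96, SE 0.29, adjusted p = 0.166), and lung against ITGB4-high gave 3.62 (SE 0.46, adjusted p = 0.0673), edgeR. SPARC, a collagen-binding glycoprotein, had 118 CPM in ITGB4-high cells, 396 and 514 in the controls, 222 and 425 in LM2 clones 1 and 3, and 232 with bleomycin. Its LM2 clone 3 library lay between the controls, and the fitted changes were -1.95 (adjusted p = 0.106) and -0.64 (adjusted p = 0.311), edgeR. DCN, the small proteoglycan decorin, ran from 12.8 to 39.2 CPM, and BGN, the related biglycan, had 1 to 21 counts and entered the test through the lung libraries.

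The mesenchymal surface genes were led by the 2 receptors for platelet-derived growth factor, which differed from each other. PDGFRA (chr4:54229097-54298247, plus strand) had 130 CPM in ITGB4-high cells, 32.6 and 35.2 in the controls, 449 and 27.6 in LM2 clones 1 and 3, and 221 with bleomycin. Both clone 1 lung libraries and the ITGB4-high library were above the controls, and LM2 clone 3 was below them, so lung and control overlapped (2.78, SE 1.06, adjusted p = 0.225, edgeR). PDGFRB (chr5:150113837-150155872, minus strand) had 0.876 CPM in ITGB4-high cells, 28.1 and 26.9 in the controls, 6.74 and 24.8 in LM2 clones 1 and 3, and 11.1 with bleomycin. It was below both controls in all 4 others, with -4.96 in ITGB4-high (SE 1.05, adjusted p = 0.0941) and -0.95 in lung (SE 0.51, adjusted p = 0.339), edgeR. FAP, a surface protease of activated fibroblasts, had 0 to 13 counts per library, and THY1, a glycoprotein of fibroblasts, had 1 count in the bleomycin library and 0 in the other 5.

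The contractile and cytoskeletal genes were the group with the lowest lung median, -1.14, and 6 of the 7 had a fitted decrease in lung cells. TPM1 (chr15:63042632-63071915, plus strand) had 83.2 CPM in ITGB4-high cells, 292 and 370 in the controls, 127 and 153 in LM2 clones 1 and 3, and 117 with bleomycin. The 3 lung libraries were close together, above the ITGB4-high library and below both controls without overlap. TPM1 fell by 1.32 on the log2 scale in lung cells (SE 0.17, adjusted p = 0.0491, edgeR), and in ITGB4-high cells the value was -1.99 (SE 0.25, adjusted p = 0.0608). Leaving out control clone 1 or control clone 3 ended the lung call, as did leaving out ITGB4-high (adjusted p = 0.0514, edgeR) or bleomycin (0.174). The call was also lost with a filter of 1 CPM in 2 libraries and with clone as a replicate block. An antisense gene overlaps TPM1.

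MYL9, a regulatory light chain of non-muscle and smooth muscle myosin, had 0.949 CPM in ITGB4-high cells, 48.0 and 68.8 in the controls, 4.96 and 23.2 in LM2 clones 1 and 3, and 7.82 with bleomycin. The order was the same as for LOXL1, controls highest, LM2 clone 3 next and ITGB4-high lowest (-5.93, SE 1.28, adjusted p = 0.0957 in ITGB4-high, and -2.28, SE 0.62, adjusted p = 0.146 in lung, edgeR). CALD1, caldesmon, had 145 CPM in ITGB4-high cells, 502 and 590 in the controls, 207 and 317 in LM2 clones 1 and 3, and 222 with bleomycin. TAGLN, the actin-binding transgelin, had 1.17 CPM in ITGB4-high cells, 9.07 and 14.3 in the controls, 1.78 and 5.82 in LM2 clones 1 and 3, and 1.54 with bleomycin. Both lay below both controls in all 4 others (CALD1 -1.91, adjusted p = 0.0757, and -1.14, adjusted p = 0.0814, and TAGLN -3.32, adjusted p = 0.129, and -1.94, adjusted p = 0.17, edgeR). ACTA2, smooth muscle actin, went the other way, at 13.4 CPM in ITGB4-high cells, 6.58 and 8.46 in the controls, 8.52 and 10.7 in LM2 clones 1 and 3, and 15.5 with bleomycin. TPM2, the other tropomyosin of the set, ran from 122 CPM in LM2 clone 1 to 374 in control clone 3. VIM, the intermediate filament vimentin, had 3561 CPM in ITGB4-high cells, 3330 and 3601 in the controls, 2174 and 3051 in LM2 clones 1 and 3, and 3080 with bleomycin. ITGB4-high cells lay within the control range for VIM and the lung libraries below it (-0.32, SE 0.20, adjusted p = 0.392, edgeR).

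**Figure D4:**
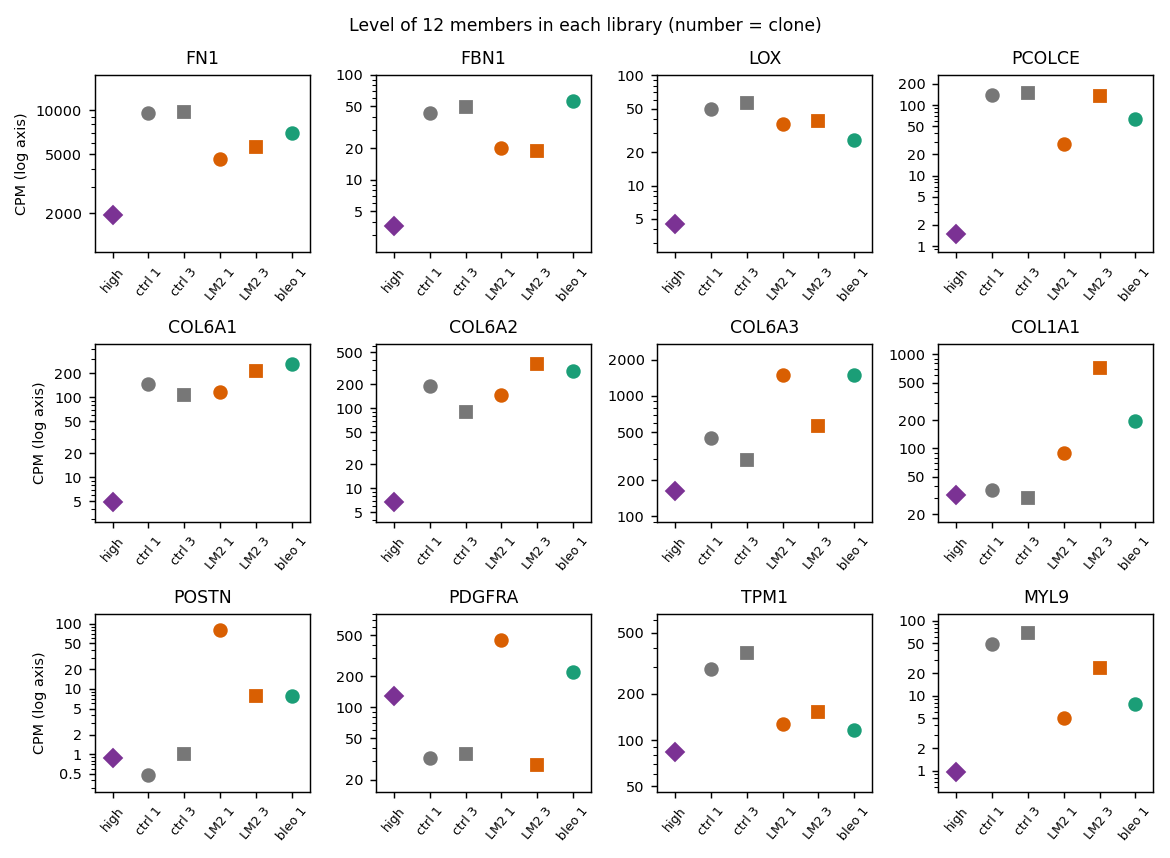
Level in CPM (y axis, log scale) of 12 genes of the set in each of the 6 libraries (x axis, with the clone number), circles for clone 1, squares for clone 3 and a diamond for ITGB4-high. FBN1 and LOX are lowest in ITGB4-high cells (3.65 and 4.45 CPM), TPM1 is at 117 to 153 in the lung libraries against 292 and 370 in the controls, and PDGFRA separates LM2 clone 3 (27.6) from LM2 clone 1 (449).

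Set against the controls one trigger at a time, 0 of the 47 genes passed with LM2 and 0 with bleomycin (edgeR), while 0.0319% and 0.0255% of all genes did. The set's median was -0.36 with LM2 (unadjusted p under 0.05 for 10 higher and 12 lower genes, against 7.29% and 8.33% of all genes) and 0.06 with bleomycin (5 higher and 11 lower, against 6.65% and 7.8%). COL1A2, ELN and BGN, which entered the test through the lung libraries, are among the 10 with LM2. DESeq2, by its Wald test, gave 16 genes of the set with LM2 and 13 with bleomycin, against 4.13% and 3.7% of all genes. Of the genes described above, EFEMP1 was at -0.92 (SE 0.21) with LM2 and -1.61 (SE 0.27) with bleomycin, and TPM1 at -1.24 (SE 0.19) and -1.50 (SE 0.24). COL6A3 was at 1.47 (SE 0.52) and 2.02 (SE 0.60). FBN1 differed in sign, at -1.24 (SE 0.15) with LM2 and 0.28 (SE 0.18) with bleomycin, and the difference between the triggers was not tested.

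The libraries of the 2 clones were close in culture and far apart after LM2. The SD of the log2 difference between clone 1 and clone 3 was 0.293 over all tested genes and 0.369 over the set in the controls, and 0.708 and 1.41 in the LM2 libraries. A difference of at least 2-fold between control clones 1 and 3 was seen for 1 gene of the 47, COL6A2, which was higher in clone 1 (0.702% of all genes were). Between LM2 clones 1 and 3 it was seen for 6 genes higher and 13 lower in clone 1 (4.6% and 6.21% of all genes). PDGFRA was 16.0-fold and POSTN 9.72-fold higher in LM2 clone 1, and COL1A1 was 7.83-fold, FBLN5 6.59-fold and LOXL1 5.20-fold higher in LM2 clone 3. These folds compare single libraries, on CPM + 0.5, and have no replicate check. Over all tested genes of chromosome 4, where PDGFRA lies, the median log2 ratio of LM2 to control was 0.28 in clone 1 and 0.01 in clone 3, and over those of chromosome 13, where POSTN lies, 0.18 and -0.04, and the part of these shifts in both values was not tested. Against the control of its own clone, LM2 clone 1 had 10 genes at least 2-fold higher and 16 lower (7.22% and 9.74% of all genes), LM2 clone 3 had 8 and 9 (3.07% and 4.01%), and bleomycin clone 1 had 8 and 14 (5.79% and 6.02%).

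**Figure D5:**
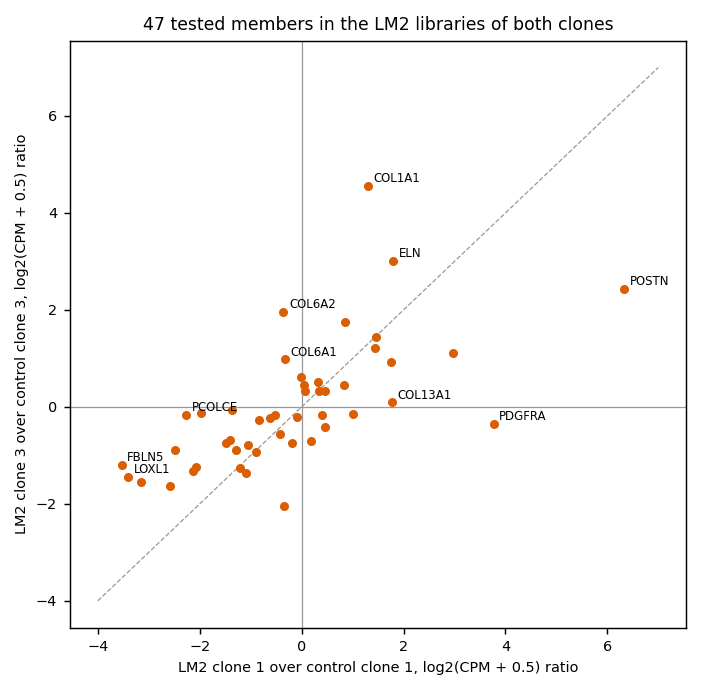
Each point is 1 of the 47 tested genes, with the log2(CPM + 0.5) ratio of LM2 to control in clone 1 (x axis) and in clone 3 (y axis), and the dashed line marks equal ratios. PDGFRA (3.77 in clone 1 and -0.35 in clone 3) lies far below the line, and COL1A1 (1.31 and 4.55) far above it.

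Lung-recovered ITGB4-low cells were last set against cultured ITGB4-high cells, since both had a high ITGB4 level. Most of the set was higher in the lung cells: 40 of 47 genes had a fitted increase and 7 a decrease, the median was 1.57 against 0.04 over all genes, and 0 passed (edgeR), while 0.108% of all genes did (0.0319% higher and 0.0766% lower). Before adjustment, p was under 0.05 for 27 higher genes and for 3 lower ones, COL5A2, COL4A5 and COL7A1, against 10.4% and 7.86% of all genes. All 3 lung libraries were above the ITGB4-high library for 36 genes (76.6%, against 30.5% of all genes) and below it for 4 (8.51%, against 30.6%). By role the median was 5.27 for collagen VI, 4.01 for surface genes, 2.91 for fibrillar collagens, 2.82 for crosslinking genes and 0.00 for basement membrane collagens. BGN, COL13A1, COL1A2, ELN and FAP, with at most 2 counts in ITGB4-high cells, entered the test through the lung libraries. They are among the 40 and the 36, and COL1A2 and COL13A1 are among the 27. The medians of surface genes and fibrillar collagens include FAP and COL1A2, and no value here was repeated without these genes. DESeq2 gave 22 genes of the set, 21 higher and 1 lower, against 6.93% of all genes.

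Other genes of the same pathways, from 4 lists that hold none of the 53, were read in the same fits, and 0 of their genes passed in any comparison. Of the collagen-making enzymes and chaperones, 27 of 27 were tested, with medians of -0.23 in ITGB4-high and -0.05 in lung cells and an unadjusted p under 0.05 in ITGB4-high cells for 2 higher and 5 lower. Among all tested genes, 10.4% were higher and 14.2% lower at this p, and these shares also stand beside the counts for the next 3 lists. ADAMTS2, the procollagen N-proteinase, was at 4.67 CPM in ITGB4-high cells against 138 and 141 in the controls (-4.90, SE 1.73, adjusted p = 0.18, edgeR), and CREB3L1, a transcription factor of collagen secretion, and BMP1, the C-proteinase, had fitted values of -2.08 (adjusted p = 0.205) and -1.33 (adjusted p = 0.138). Of the other collagens, 13 of 25 were tested, with medians of -3.18 and -1.10, 2 higher and 6 lower, and 11 of the 13 had a fitted decrease in ITGB4-high cells. COL4A3, COL14A1, COL15A1 and COL24A1, with at most 8 counts in any library outside the controls, entered the test through the controls. The medians include these genes. COL4A3, COL14A1 and COL15A1 are among the 6 and the 11, and no value here was repeated without them. COL5A3, a type V chain, was at 1.02 CPM in ITGB4-high cells, at most 15.7 in the controls, 0.31 and 19.4 in LM2 clones 1 and 3, and 0.833 with bleomycin (-3.85, adjusted p = 0.344, edgeR). COL28A1 was at 15.4 CPM in ITGB4-high cells, 59.8 and 60.9 in the controls, 4.80 and 33.4 in LM2 clones 1 and 3, and 16.6 with bleomycin (-1.97, adjusted p = 0.338, edgeR). The third gene went the other way: COL4A6, a type IV chain, was at 207 CPM in ITGB4-high cells, 66.3 and 71.6 in the controls and 94.7 to 124 in the lung libraries (1.58, adjusted p = 0.0514, edgeR). COL17A1, under the minimum level at a mean log2 CPM of 1.75, was named after its values were seen. It had 827 counts in ITGB4-high cells, 2 and 2 in the controls, 128 and 37 in LM2 clones 1 and 3, and 25 with bleomycin. It is among the 2 higher genes, entered the test through libraries other than the controls and gets no fold here. Of the elastic fibre, proteoglycan and matricellular genes, 13 of 26 were tested, with medians of -0.97 and -0.38, 1 higher and 4 lower. The fitted values of MGP and SPOCK1 in ITGB4-high cells were -2.51 (adjusted p = 0.124) and -1.05 (adjusted p = 0.555, edgeR). CCDC80, a secreted matrix protein, was at 12 CPM in ITGB4-high cells, 795 and 1229 in the controls, 37.0 and 244 in LM2 clones 1 and 3, and 49.0 with bleomycin (-6.40, adjusted p = 0.104, edgeR). Of the contractile and serum response factor genes, 20 of 24 were tested, with medians of -0.44 and -0.31, 2 higher and 7 lower. MYLK, the kinase of the light chain that MYL9 encodes, was at 1.02 CPM in ITGB4-high cells, 51.2 and 42.2 in the controls, 9.53 and 17.1 in LM2 clones 1 and 3, and 21.3 with bleomycin (-5.50, adjusted p = 0.0528, edgeR), and the actin-binding CNN3 and PALLD had fitted values of -2.47 (adjusted p = 0.23) and -2.04 (adjusted p = 0.0608).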

How the data were processed

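The RNA was poly(A) RNA, taken with oligo-dT and turned into libraries that keep the strand, per the labels' protocols, and STAR 2.7.1a with hg38 is named in the submitters' processing notes. The values the authors deposited are raw counts of reads per gene. Which counter, annotation and strand setting made them is not given in the sources used here, so overlapping genes on opposite strands have uncertain counts. Gene positions and exon lengths came from GENCODE release 29. A floor of 3 counts equals 0.138 to 0.232 CPM at the depths given above.

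Counts were tested with edgeR 4.0.16 (R 4.3.3), by its quasi-likelihood test with TMM factors, filterByExpr at a minimum count of 10 (15673 genes) and Benjamini-Hochberg adjustment over all of them at 0.05. All 6 libraries entered each fit. Each trigger and ITGB4-high were set against control with 4 groups (2 residual degrees of freedom, common BCV, the biological coefficient of variation, 0.244), and lung cells with 3 classes (3 degrees of freedom, 0.243), where clone 1 enters the lung class under both triggers. Ratios of single libraries are on CPM + 0.5. The model was run on simulated counts with known changes. The simulated spread was below the BCV fitted here and held no clone differences, so this run checks the code and not the power in these data.

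Clone numbers, from the titles, pair control and LM2 libraries of the same clone. The correlation of the clone differences in the 2 groups was 0.00875 over 15673 genes and 0.117 over the 47. A fit with clone as a replicate block, RLE factors, other low-count filters, DESeq2 1.42.0, limma-voom (limma 3.58.1) and leaving out each library were tried as alternatives. Members got full values if they passed in a comparison, were among the 6 largest changes in ITGB4-high or lung against control at a mean log2 CPM of 2 or more, or were among the 3 highest per kilobase, with up to 3 examples per role, and list genes as up to 3 per list with the largest change in ITGB4-high cells and the same minimum level. The members and lists were chosen with earlier results of these data known.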

Additional observations from a re-analysis of the deposited data

Results flagged for a closer look

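Some genes of the set had ratios to the control of their own clone that went in opposite directions, each by more than 0.293, the SD of the log2 difference between the control clones over all genes. The ratios are log2(CPM + 0.5) of single libraries, and the differences were not tested. In LM2 lungs, clone 1 against clone 3, COL6A1 was at -0.32 and 0.98, COL6A2 at -0.36 and 1.95, PLOD2 at 0.46 and -0.41, and PDGFRA at 3.77 and -0.35. In clone 1, LM2 against bleomycin, COL6A1 was at -0.32 and 0.80, COL6A2 at -0.36 and 0.63, FBN1 at -1.09 and 0.38, and PLOD2 at 0.46 and -0.46. The COL6A1, COL6A2 and PLOD2 entries use the LM2 clone 1 library in both contrasts.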

How the results depend on the processing

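The counts of genes of the set that passed moved with the method. ITGB4-high against control gave 2, and 5 with RLE factors, 21 with no low-count filter, 25 with DESeq2, 0 with limma-voom, 16 with the replicate block of clone, and 0 to 33 leaving out 1 library. The shares of all genes called were 0.472%, 8.14%, 9.68%, 0.0128% and 2.32% in these fits. The 0 came without control clone 1 or 3 (unadjusted p under 0.05 for 22 lower genes in both cases and for 3 or 4 higher ones), and 31 and 33 came without LM2 clones 1 and 3, where 42% and 41.6% of all genes passed. Lung against control gave 1, and 20 with no filter, 0 at 1 CPM in 2 libraries, 19 with DESeq2, 0 with the replicate block and 0 to 17 leaving out 1 library, the 17 being without LM2 clone 3. All genes passed at 6.47%, 0.398%, 8.15% and 0.249% in these fits, and at 6.55% without LM2 clone 3. LM2 against control gave 0, and 14 with no filter (5.25% of all genes), 16 with DESeq2 (4.13%) and 0 to 34 leaving out 1 library (22 and 34 without LM2 clones 1 and 3, with 11.6% and 40.8%). Bleomycin against control gave 0, and 15 with no filter (4.3%), 13 with DESeq2 (3.7%) and 0 to 33 (32 and 33 without LM2 clones 1 and 3, with 28.1% and 27.2%). Lung against ITGB4-high gave 0, and 17 with no filter (4.23%), 22 with DESeq2 (6.93%) and 0 to 14 (14 and 2 without LM2 clones 1 and 3, with 9.1% and 0.239%). Leaving out LM2 clone 1 or 3 also removes the LM2 pair, the one with the wider spread, from the estimate of error. The replicate block changed no other count of calls. The counts of 14 and 20 genes whose lung libraries lay beyond both controls were 14 to 18 and 20 to 22 without single libraries, and 10 and 20 over genes at the filter's level in the group on the low side, alternatives chosen after seeing the data.

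Of 912 alternative values for the 16 genes with full values, 746 kept direction and side of the threshold, 147 newly passed, 12 no longer passed and 7 changed sign. In ITGB4-high against control, POSTN was -0.053 with the block and ran from -0.21 to 0.84 leaving out 1 library, COL1A1 from -0.18 to 0.11 and VIM from -0.021 to 0.090, in each case between the fits without control clones 1 and 3. With LM2, PDGFRA ran from -0.30 without LM2 clone 1 to 3.74 without LM2 clone 3, and COL6A1 from -0.090 without LM2 clone 3 to 0.73 without LM2 clone 1. In lung against ITGB4-high, PDGFRA ran from -0.058 to 1.39 without LM2 clones 1 and 3. The set's lung median was 0.083 with no filter and ran from -0.26 without bleomycin to 0.10 without control clone 3. Its bleomycin median was -0.15 at 1 CPM in 2 libraries and ran from -0.053 without LM2 clone 1 to 0.19 without control clone 3. The cause of these shifts was not tested. Depth limits COL1A2, ELN, COL13A1, BGN and FAP, which had at most 61 counts in a library.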
